A study of Homo sapiens with 12 samples.

Results

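HIF-1α knockdown was compared with wild type in spheroids of HepG2, a human liver carcinoma cell line that keeps many hepatocyte genes active. The comparison used 8 of the 12 arrays of the series, chosen by the genotype in the labels: 4 arrays of HepG2 with HIF-1α knockdown against 4 arrays of wild type HepG2. The other 4 arrays, of HepG2 with HIF-2α knockdown, entered the fit for the estimate of the spread and served as a second knockdown beside it. All spheroids were 10 days old, grown in stirred flasks in serum-containing medium, and each group came from 4 different spheroid experiments. Total RNA was amplified, labelled with biotin and hybridised to Affymetrix arrays. The method of knockdown, any control construct in the wild type cells, and whether each line was 1 clone or a pool are not stated in the labels. If each genotype was a single cell line, the arrays are repeats of that line and not of independent knockdowns.

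Hypoxia-inducible factors are transcription factors made of an oxygen-labile α subunit, HIF-1α (gene HIF1A) or HIF-2α (gene EPAS1), and the stable partner ARNT. In the presence of oxygen, prolyl hydroxylases of the EGLN family mark the α subunit for VHL and degradation. When oxygen falls, as it does towards the core of a spheroid, the dimer binds DNA sites with the core ACGTG or GCGTG. HIF-1 is best known for activating glucose uptake and glycolysis, while both factors act on angiogenic and stress genes, and in liver HIF-2 is linked to lipid and iron metabolism. A knockdown of HIF1A acts on its mRNA, whereas oxygen acts mainly on the protein, which arrays do not measure.

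Levels are deposited log2 probe set values, differences are HIF-1α knockdown minus wild type on that log2 scale, and n = 4 arrays per group throughout. A gene was called when its adjusted p, from limma over all 18404 genes with Benjamini-Hochberg adjustment, lay below 0.05. In bulk RNA, fewer cells of a kind and less RNA per cell cannot be told apart. Percentiles of markers, the median included, were taken on each of the 8 arrays compared. Of 12 measured hepatocyte markers, 10 lay above the 90th percentile of every one of them. The fibroblast or stellate, endothelial and leukocyte lists had 11 of 13, 9 of 11 and 9 of 11 measured members below the median of every array, and none was called. Of 8 cholangiocyte markers none was called and 4 lay below that median, but all 8 differences were negative, with a median of -0.08. KRT19, EPCAM and SOX9 of that list lay between the 85.7 and 95.2 percentiles on the 8 arrays. The leukocyte list includes LYZ, which lay between the 99.7 and 99.9 percentiles on the 8 arrays. Summed over its members, the fibroblast list gave 92.3 to 93.3 on the wild type arrays and 92.5 to 93.3 on those of HIF-1α knockdown. The endothelial list gave 76.2 to 77.4 and 76.9 to 77.4, the leukocyte list 84.3 to 86.1 and 84.4 to 85.4, and the cholangiocyte list 66.8 to 67.8 and 65.9 to 67.2. The part of these cells in the results was not tested. The floor of the values, taken as the 0.1 percentile of an array, was raised in wild type replicates 1 and 2 and in HIF-2α knockdown replicate 4 (6.33 to 6.35, elsewhere 6.11 to 6.23).

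The targeted transcript was lower on every knockdown array. HIF1A read 10.74, 10.64, 10.79 and 10.62 in wild type replicates 1 to 4 and 9.25, 9.58, 9.38 and 9.64 in HIF-1α knockdown, with no overlap. The difference was -1.23 (SE 0.15, adjusted p = 0.00241 by limma), which leaves 42.5% of the wild type signal. An exact permutation test of the same 8 arrays, two-sided, gave p = 0.0286, the smallest it can give. EPAS1, the other α subunit, read 10.96, 10.83, 10.97 and 11.26 in wild type against 11.02, 10.87, 11.08 and 10.95 in HIF-1α knockdown, and these ranges overlap. ARNT read 9.69, 9.59, 9.61 and 9.42 and 9.66, 9.61, 9.60 and 9.53, which also overlap. Neither was called, at differences of -0.03 (SE 0.09) and 0.02 (SE 0.07), and the sign of both depended on the scaling or on single arrays. Of the 12 measured genes of the list of HIF subunits and oxygen sensors, HIF1A was the only one called. EGLN3, a prolyl hydroxylase that is itself hypoxia-induced, differed by -0.21 (adjusted p = 0.114), EGLN1 by 0.11, VHL by -0.07, and HIF1AN, the asparaginyl hydroxylase that also restrains HIF-1α, by -0.12. When the 3 arrays with a raised floor were left out, only 2 wild type arrays remained, and HIF1A differed by -1.24 (adjusted p = 0.103).

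**Figure D1:**
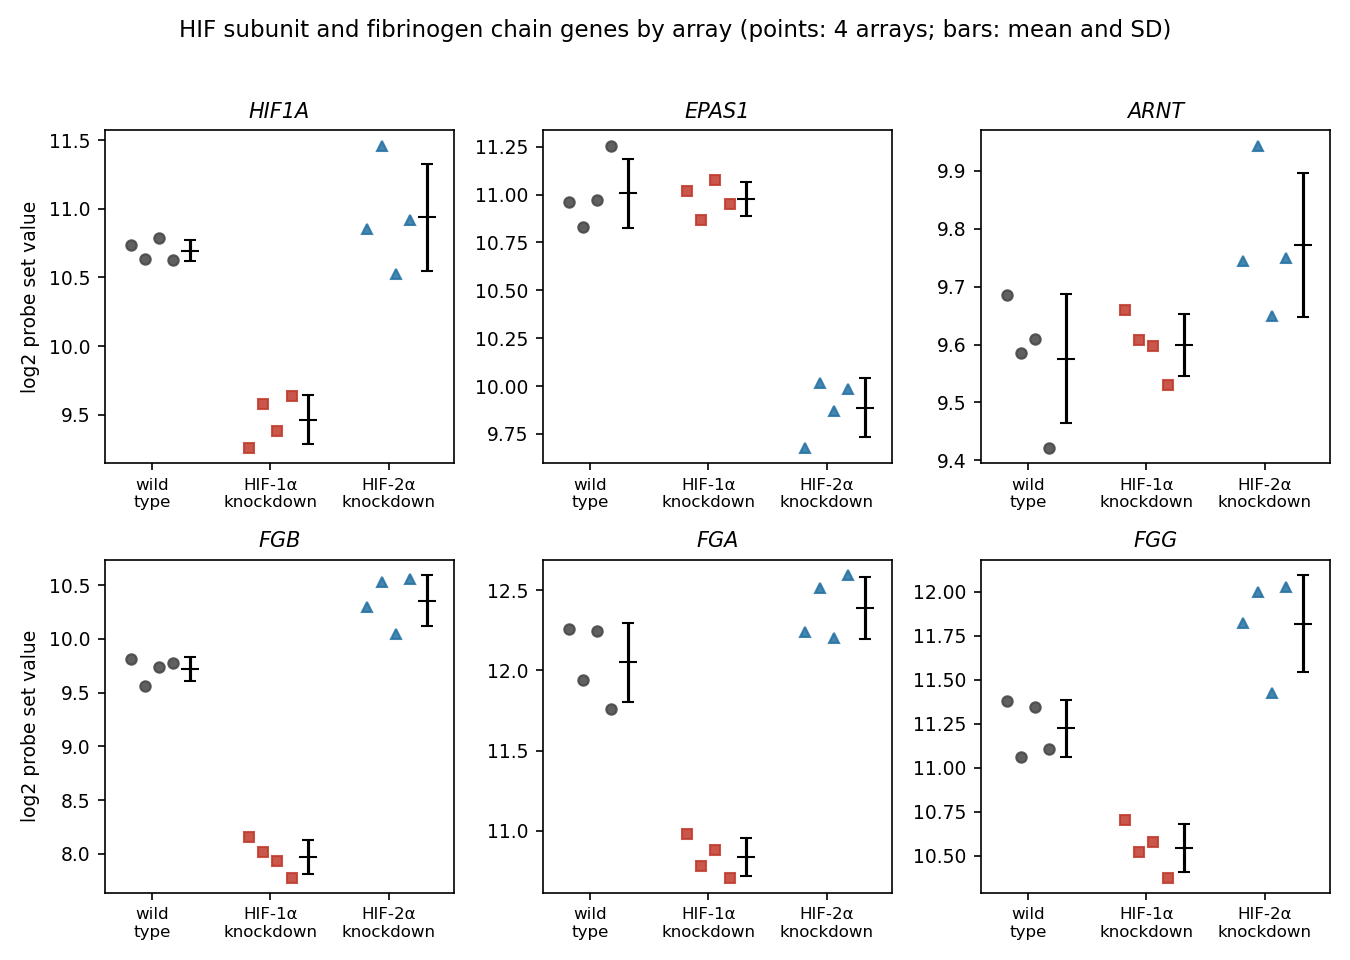
Log2 probe set values of HIF1A, EPAS1, ARNT and the fibrinogen chain genes FGB, FGA and FGG on each of the 12 arrays, with the mean and SD of each group beside the 4 points; each panel has its own vertical range. HIF1A and the 3 fibrinogen genes lie lower on all 4 HIF-1α knockdown arrays than on any wild type array, while EPAS1 and ARNT overlap between these groups.

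Across the 18404 genes, 177 (0.962%) were called, 150 higher (0.815%) and 27 lower (0.147%) in HIF-1α knockdown. The median difference of all genes was 0.00. The called rises were mostly modest, with a median difference of 0.42 or 1.34-fold, and the called falls had a median of -0.52 or 1.44-fold. At least 2-fold higher were 6 genes and at least 2-fold lower 5 genes. In all 177 the 4 knockdown arrays lay wholly to 1 side of the 4 wild type arrays, against 7.84% of all genes tested (5.73% with all knockdown arrays above and 2.11% with all below).

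Differences moved with signal level, and this stands beside every result on bright genes below. For genes with a mean over the 12 arrays between 6 and 11, the median difference lay between -0.04 and 0.09. It was -0.19 for the 173 genes between 12 and 13 and -0.50 for the 47 genes between 13 and 14, which include ALB, TF, APOB and ENO1. The highest value of each HIF-1α knockdown array was between 13.85 and 14.14, against 14.24 to 14.97 on the wild type arrays. On HIF-2α knockdown replicates 1 to 4 it was 13.92, 14.85, 14.08 and 15.05, so it also varied between arrays of that genotype. After quantile normalization the medians of these bands were 0.07 and 0.03, and after cyclic loess normalization, a setting chosen after this pattern was seen, 0.02 and -0.17. In HIF-2α knockdown minus wild type, with the values as deposited, these bands had medians of -0.05 and -0.15. The cause of these shifts was not tested.

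**Figure D2:**
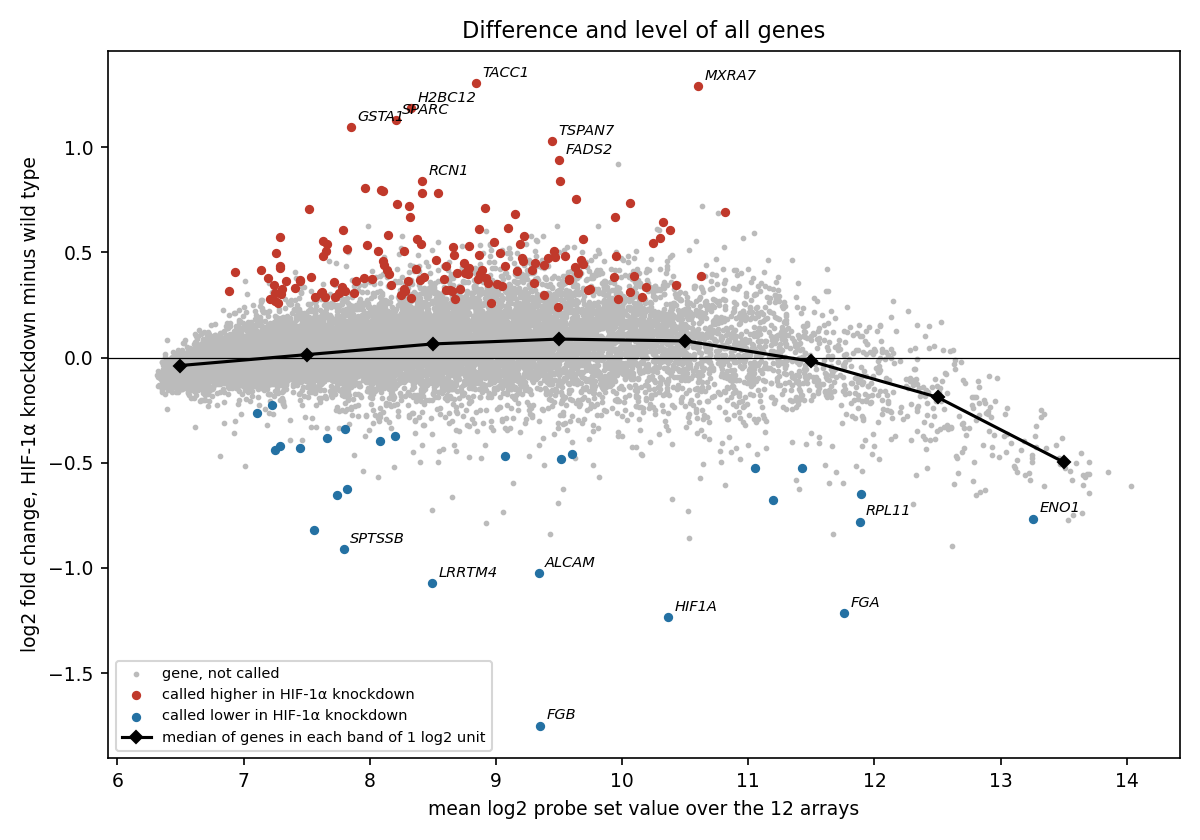
Difference between HIF-1α knockdown and wild type (log2, vertical axis) against the mean log2 probe set value over the 12 arrays (horizontal axis) for 18404 genes, with called genes in red (150 higher) and blue (27 lower) and the median of each band of 1 log2 unit in black. The black line stays near 0 up to a level of 12 and reaches -0.50 between 13 and 14, where ENO1 is the only called gene.

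Glucose uptake and glycolysis, the pathway most often tied to HIF-1, had 4 of 20 measured members called lower and none higher, against 0.147% of all genes called lower. They were HK2, the hexokinase that traps glucose in the cell, GPI, which converts glucose 6-phosphate to fructose 6-phosphate, ENO1, the enolase of lower glycolysis, and SLC2A3, the glucose transporter GLUT3. The median of the list was -0.17 against 0.00 for all genes, and 14 of 20 members were negative. In HIF-2α knockdown minus wild type, which shares the wild type arrays, the list median was -0.21. In 9 of 20 members (45.0%) all 4 HIF-1α knockdown arrays lay below all 4 wild type arrays, against 2.11% of all genes. That share of all genes was not matched for level. Measured against the median of each gene's own level band, 16 of 20 were below it, and the list median was -0.09 relative to it. This is not particular to glycolysis. The same measure gave -0.10 for respiratory chain subunits and for histones, and -0.09 for DNA replication and for NRF2 targets. Other lists lay above 0, up to 0.11 for fatty acid desaturases and elongases. The list was chosen with earlier results of these data known, so its direction is a description.

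The promoters of HK2, GPI and ENO1 are shown because HIF-1 binds such cores near the genes it activates; that of SLC2A3, the other called glycolytic gene, is not shown here. The sequences are from RefSeq (GRCh38.p14), read on the strand of the gene from 250 bases before to 50 bases after the listed start, with ACGTG and GCGTG cores in capitals on either strand (CACGT and CACGC on the other). HK2 has a pair of listed starts, at chr2:74833877-74834176 and chr2:74834920-74835219 (plus strand). GPI lies at chr19:34364742-34365041 (plus strand) and ENO1 at chr1:8878637-8878936 (minus strand).
HK2 first start: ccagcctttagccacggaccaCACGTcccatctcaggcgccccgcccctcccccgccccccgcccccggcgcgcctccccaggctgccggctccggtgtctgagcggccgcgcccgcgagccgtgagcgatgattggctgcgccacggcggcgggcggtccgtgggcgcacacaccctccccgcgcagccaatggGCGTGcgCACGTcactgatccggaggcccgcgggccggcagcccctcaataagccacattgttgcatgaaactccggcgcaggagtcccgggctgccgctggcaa
HK2 second start: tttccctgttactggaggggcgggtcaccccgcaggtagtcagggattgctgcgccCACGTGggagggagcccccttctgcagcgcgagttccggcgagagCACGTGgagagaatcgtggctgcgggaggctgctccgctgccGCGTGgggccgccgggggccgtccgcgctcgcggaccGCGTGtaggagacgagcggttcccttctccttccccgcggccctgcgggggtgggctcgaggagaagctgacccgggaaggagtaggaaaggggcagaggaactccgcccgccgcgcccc
GPI: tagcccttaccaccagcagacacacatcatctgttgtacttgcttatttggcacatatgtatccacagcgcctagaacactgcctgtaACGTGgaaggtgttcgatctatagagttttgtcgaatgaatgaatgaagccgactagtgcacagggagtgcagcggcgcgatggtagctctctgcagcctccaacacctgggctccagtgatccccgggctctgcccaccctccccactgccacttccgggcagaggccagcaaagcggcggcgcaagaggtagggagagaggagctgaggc
ENO1: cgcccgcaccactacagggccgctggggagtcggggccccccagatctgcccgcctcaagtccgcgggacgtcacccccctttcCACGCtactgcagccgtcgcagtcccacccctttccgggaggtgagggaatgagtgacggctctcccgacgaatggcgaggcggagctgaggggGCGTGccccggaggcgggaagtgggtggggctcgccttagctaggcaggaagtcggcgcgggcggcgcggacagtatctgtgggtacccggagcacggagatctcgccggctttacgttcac

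The HK2 promoters hold the core ACGTG most densely: at -229 and -48 from the first start, and at the second start as a pair of CACGTG palindromes whose plus-strand cores lie at -193 and -148. GPI has ACGTG at -162. ENO1 has no ACGTG in this window and GCGTG at -166 and -72. Among 19 members of the glycolysis list with a promoter in the table, 8 (42.1%) held ACGTG on either strand, against 5900 of all 27305 promoters (21.6%) and 24.0% of the 14230 measured genes with a promoter in the table. GCGTG was found in 9 of the 19 (47.4%), in 36.3% of all promoters and in 44.7% of the measured genes, so its share among glycolytic genes was close to that of all measured genes. A match is a description of letters and no sign of binding in these spheroids.

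HK2 read 9.73, 9.65, 10.01 and 9.91 in wild type against 9.36, 9.24, 9.50 and 9.28 in HIF-1α knockdown, 1.40-fold lower (-0.48, SE 0.08, adjusted p = 0.0171). The highest knockdown array lay below the lowest wild type array by a narrow margin. GPI read 11.78, 11.54, 11.82 and 11.78 in wild type against 11.20, 11.22, 11.32 and 11.08 in knockdown (-0.52, SE 0.11, adjusted p = 0.0414). ENO1 read 13.74, 13.59, 13.86 and 13.34 and 12.89, 12.86, 13.08 and 12.64 (-0.77, SE 0.14, adjusted p = 0.0236). Wild type replicate 4 was the lowest wild type array for ENO1 and knockdown replicate 4 the lowest of all. SLC2A3 read 12.42, 12.22, 12.70 and 12.29 and 11.51, 11.79, 12.04 and 11.67 (-0.65, SE 0.14, adjusted p = 0.047). In none of the 4 did the groups overlap. For HK2, whose level lies in a band with a median of 0.09, the difference was -0.57 after quantile normalization (adjusted p = 0.00141) and -0.57 after cyclic loess (adjusted p = 0.00131). ENO1, in the band with a median of -0.50, went to -0.29 (adjusted p = 0.0308) and -0.46 (adjusted p = 0.0118). GPI went to -0.49 and -0.44, and SLC2A3 to -0.49 and -0.51, all called.

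Every call of this pathway was lost without some single arrays, while the 4 differences stayed negative. Without single arrays HK2 was -0.54 to -0.42, ENO1 -0.86 to -0.69, GPI -0.59 to -0.48 and SLC2A3 -0.75 to -0.55. The count of called genes over all genes also moved, from 50 to 483. The HK2 call was lost without any 1 of wild type replicate 4 and HIF-1α knockdown replicates 2 and 4 (adjusted p up to 0.0744), ENO1 without any of wild type replicates 1 and 2 and HIF-1α knockdown replicates 2 and 4 (up to 0.0917), GPI without any of wild type replicates 1 and 4 and HIF-1α knockdown replicates 1, 2, 3 and 4 (up to 0.126), and SLC2A3 without any of the 8 compared arrays (up to 0.134). Without the 3 arrays with a raised floor no member of the list was called, although the median of the list was -0.32, and with each array centred on its median only HK2 was.

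The other members ranged from -0.56 for GAPDH to 0.20 for ENO3, the muscle enolase. GAPDH (adjusted p = 0.0848), TPI1 at -0.46 (0.108), PKM at -0.40 (0.0503) and ALDOA at -0.29 (0.0848) all read lower on average without being called. PGK1, a textbook HIF-1 target, differed by -0.11 (SE 0.15, adjusted p = 0.827), with wild type arrays at 11.72, 11.37, 11.99 and 11.30 and knockdown arrays at 11.53, 11.59, 11.67 and 11.16. SLC2A1, the transporter GLUT1, differed by -0.21 (SE 0.11, adjusted p = 0.433) and SLC2A2, the hepatocyte transporter GLUT2, by -0.48 (SE 0.16, adjusted p = 0.194). The phosphofructokinases PFKL, PFKM and PFKP stood at -0.13, -0.03 and 0.09, and the hexokinase HK1 at 0.02.

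At the end of the pathway, LDHA, which turns pyruvate into lactate, read 12.96, 12.79, 13.29 and 12.62 in wild type against 12.41, 12.54, 12.76 and 12.23 in knockdown, and the groups overlapped (-0.43, SE 0.17, adjusted p = 0.283). PDK1, the kinase that keeps pyruvate out of mitochondria, read 9.67, 9.74, 10.29 and 9.66 and 9.07, 9.24, 9.42 and 9.14, with no overlap but no call (-0.62, SE 0.14, adjusted p = 0.0588). The only called gene of the 17 measured for the fate of pyruvate and lactate was SLC16A7, the monocarboxylate transporter MCT2, and it rose. SLC16A7 read 6.88, 6.86, 6.76 and 6.72 in wild type against 7.26, 7.30, 7.08 and 7.20 in knockdown (0.40, SE 0.06, adjusted p = 0.00579). These levels are near the floor of the arrays, where a log2 difference understates a change, and the call held in all 19 alternative settings.

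**Figure D3:**
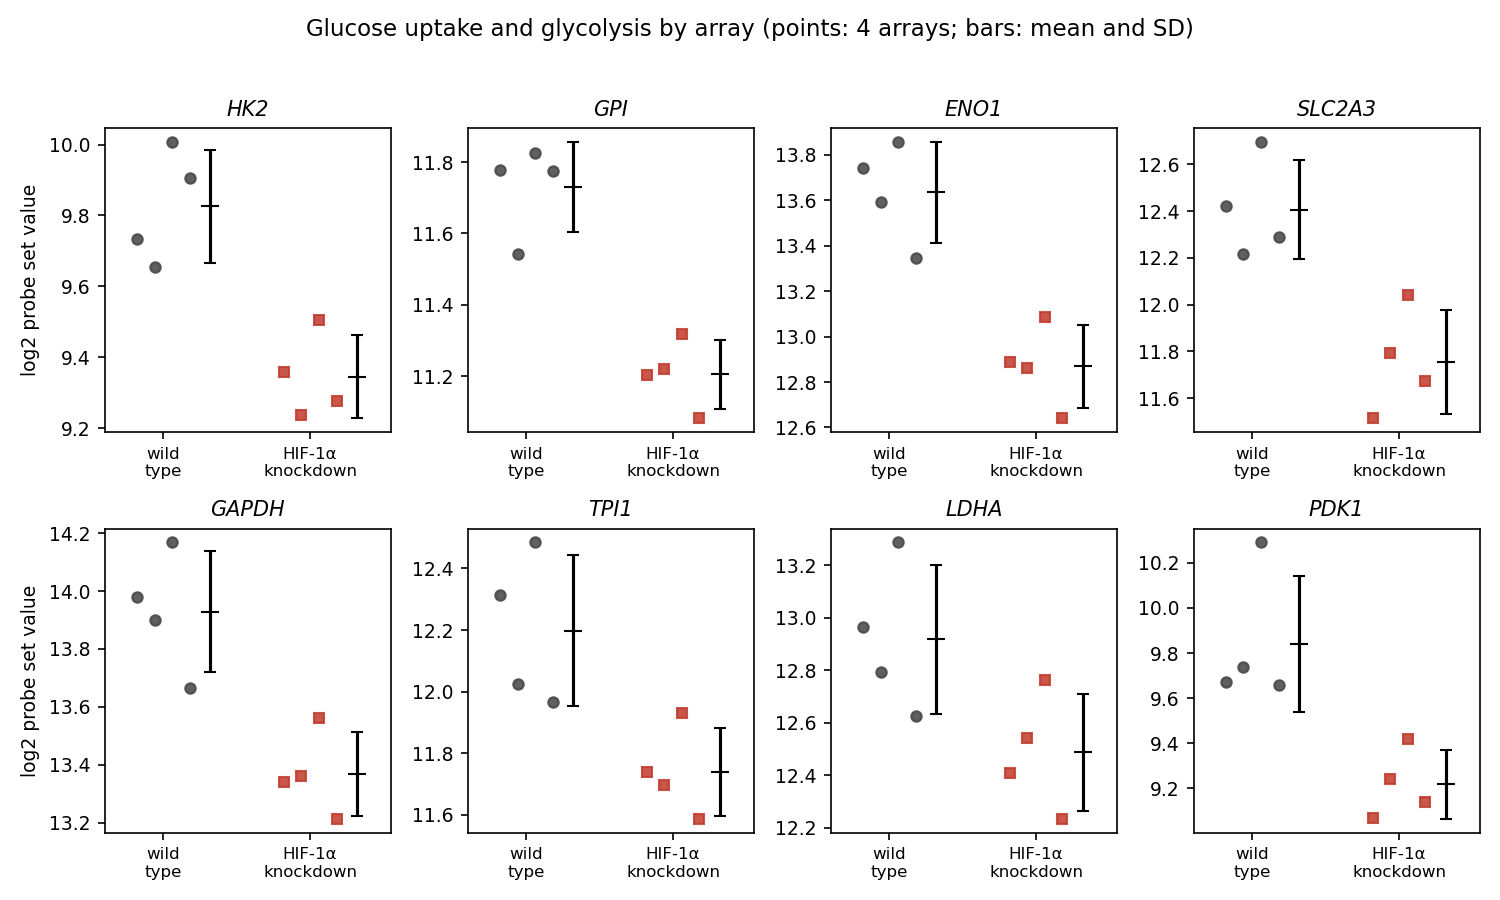
Log2 probe set values of 8 genes of glucose uptake, glycolysis and pyruvate use on the 4 wild type and 4 HIF-1α knockdown arrays, with mean and SD beside the points; each panel has its own vertical range. HK2, GPI, ENO1 and SLC2A3 were called lower, GAPDH, TPI1 and PDK1 read lower on all knockdown arrays without being called, and LDHA overlaps.

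Hypoxia-induced genes outside glycolysis gave no call. Of 38 measured members, 28 were negative and the median was -0.09, beside -0.11 in HIF-2α knockdown minus wild type. In 6 of them all HIF-1α knockdown arrays lay below all wild type arrays (2.11% of all genes did). In 1 member all lay above (5.73% of all genes did). The lowest were BNIP3L, a mitophagy receptor (-0.50, SE 0.12, adjusted p = 0.0639), IGFBP1, a hepatocyte IGF-binding protein (-0.48, adjusted p = 0.493), and NDRG1, a stress gene strongly induced by hypoxia (-0.46, adjusted p = 0.096). NDRG1 read 10.62, 10.38, 10.89 and 10.89 in wild type against 10.18, 10.20, 10.42 and 10.16 in HIF-1α knockdown, but 9.39, 9.75, 9.64 and 9.30 in HIF-2α knockdown, where it was called at -1.17 (adjusted p = 0.000517). DDIT4, the mTORC1 inhibitor REDD1, differed by -0.30, the collagen lysyl hydroxylase PLOD2 by -0.31, the prolyl hydroxylase subunit P4HA1 by -0.25, BNIP3 by -0.17 and the histone demethylase KDM3A by -0.17. ADM and PLIN2 stood at -0.02 and -0.01. After quantile normalization 3 members were called lower and none higher, and after cyclic loess also 3, none higher, with medians of -0.15 in both. Under these scalings 0.619% and 0.522% of all genes were called lower and 0.761% and 0.907% higher, against 0.147% and 0.815% with the values as deposited. Of 32 members with a promoter in the RefSeq table, 19 (59.4%) held ACGTG, against 21.6% of all promoters and 24.0% of the measured genes.

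Angiogenic factors and receptors had no call among 21 measured genes, with a median of 0.02. VEGFA, the main angiogenic factor and a classical HIF target, read 9.91, 9.65, 9.91 and 9.82 in wild type against 9.86, 9.83, 9.91 and 9.79 in knockdown (difference 0.02, SE 0.06, adjusted p = 0.923). EPO differed by 0.03, ANGPTL4 by 0.11 and THBS1, an inhibitor of angiogenesis, by 0.23 (adjusted p = 0.464). The list ran from -0.08 for ANGPT1 to that of THBS1. The endothelial receptor KDR had a wild type mean of 6.73, close to the floor of the arrays. Iron handling (15 measured), glycogen and fructose bisphosphate regulation (17) and gluconeogenesis (8) also had no member called. The smallest adjusted p among them were those of transferrin TF (-0.77, adjusted p = 0.0503), TIGAR, which breaks down fructose 2,6-bisphosphate (0.46, 0.0633), and PFKFB4, which sets its level (-0.34, 0.0867), each without overlap.

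The 3 fibrinogen chain genes fell together, and FGB had the largest fall of the 18404 genes. FGB, FGA and FGG encode the Bβ, Aα and γ chains that hepatocytes assemble into fibrinogen, the precursor of the fibrin clot, and lie next to each other on chromosome 4 in the RefSeq table. FGB read 9.82, 9.56, 9.74 and 9.78 in wild type against 8.16, 8.02, 7.94 and 7.78 in HIF-1α knockdown, which is 29.7% of the wild type signal. FGA read 12.26, 11.94, 12.24 and 11.76 and 10.98, 10.78, 10.88 and 10.71, with 43.1% remaining. FGG read 11.38, 11.06, 11.35 and 11.11 and 10.70, 10.52, 10.58 and 10.38, with 62.5% remaining. In each gene all 4 knockdown arrays lay well below all wild type arrays, as the plot of the HIF subunit and fibrinogen genes shows. The differences were -1.75 (SE 0.11, adjusted p = 9.03e-06), -1.21 (SE 0.12, adjusted p = 0.000339) and -0.68 (SE 0.12, adjusted p = 0.0207).

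FGB and FGA were called in all 19 alternative settings, FGB between -1.84 and -1.68 and FGA between -1.31 and -1.09. FGG kept its direction and was -0.72 after quantile normalization (adjusted p = 0.0075), but its call was lost without any of wild type replicate 1 and HIF-1α knockdown replicates 2, 3 and 4 (adjusted p up to 0.0836), with each array centred on its median (0.0567) and without the 3 arrays with a raised floor (0.168).

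The fibrinogen promoters are shown because their genes moved together, with GTTAAT, the conserved arm of the site bound by the liver factor HNF1, in capitals on either strand (ATTAAC on the other). From the same RefSeq table, the FGB promoter lies at chr4:154562730-154563029 (plus strand), that of FGA at chr4:154590693-154590992 (minus strand) and that of FGG at chr4:154612607-154612906 (minus strand).
FGB: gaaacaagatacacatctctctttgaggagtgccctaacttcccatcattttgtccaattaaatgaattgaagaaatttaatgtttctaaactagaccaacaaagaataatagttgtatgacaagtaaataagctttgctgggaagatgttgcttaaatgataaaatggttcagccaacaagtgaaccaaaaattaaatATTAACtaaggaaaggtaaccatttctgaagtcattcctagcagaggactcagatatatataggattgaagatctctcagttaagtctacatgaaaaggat
FGA: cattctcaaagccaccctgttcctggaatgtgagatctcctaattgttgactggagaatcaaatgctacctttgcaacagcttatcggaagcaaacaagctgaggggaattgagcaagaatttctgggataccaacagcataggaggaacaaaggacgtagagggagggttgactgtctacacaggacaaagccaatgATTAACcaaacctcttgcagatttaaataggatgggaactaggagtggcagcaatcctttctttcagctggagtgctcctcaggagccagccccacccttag
FGG: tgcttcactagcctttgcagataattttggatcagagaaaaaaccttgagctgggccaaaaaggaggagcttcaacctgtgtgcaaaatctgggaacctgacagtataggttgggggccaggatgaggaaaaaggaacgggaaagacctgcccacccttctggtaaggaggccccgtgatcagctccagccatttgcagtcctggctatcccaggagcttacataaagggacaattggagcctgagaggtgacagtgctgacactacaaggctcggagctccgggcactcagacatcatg

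GTTAAT lay on the opposite strand at -51 in FGB and -52 in FGA, and FGG had none in this window. Among 27 clotting genes with a listed promoter, 8 (29.6%) held this motif, against 6.89% of all promoters and 5.12% of the measured genes. None of the 3 fibrinogen windows shown held ACGTG or GCGTG. For FGB only the first listed start was searched.

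The rest of the clotting and fibrinolysis list did not follow fibrinogen. Of 31 measured members, 3 were called lower, all fibrinogen chains, and 1 higher, against 0.147% and 0.815% of all genes, with a median of -0.01. The gene that rose was CPB2, a carboxypeptidase that protects clots from fibrinolysis. CPB2 read 10.56, 10.40, 10.74 and 10.21 in wild type against 11.06, 11.23, 11.24 and 11.16 in knockdown, 1.62-fold higher (0.69, SE 0.10, adjusted p = 0.00763). The next members were not called. KNG1, kininogen, differed by 0.42 (adjusted p = 0.063), prothrombin F2 by -0.20 (adjusted p = 0.537), antithrombin SERPINC1 by 0.21, plasminogen PLG by 0.03 and the fibrinogen-like FGL1 by -0.33 (adjusted p = 0.512).

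Other plasma and acute phase proteins, several of which are induced with fibrinogen by interleukin 6 in hepatocytes, had 1 of 38 measured members called. Of all genes, 0.962% were called. C1S, a serine protease of the complement cascade, rose from 7.33, 7.27, 7.32 and 7.47 to 7.76, 7.84, 7.67 and 7.57 (0.36, SE 0.07, adjusted p = 0.0192). The call was lost without any of wild type replicates 1 and 2 and HIF-1α knockdown replicates 2 and 3 (adjusted p up to 0.0759). Haptoglobin HP read 9.73, 9.67, 10.82 and 10.09 in wild type against 10.69, 10.81, 10.92 and 10.35 in knockdown, a difference of 0.61 (SE 0.20, adjusted p = 0.171). The acute phase proteins SERPINA3, SAA1, ORM1 and CRP differed by 0.14, -0.09, -0.19 and -0.07. None of 13 measured genes of interleukin 6 signalling was called, with a median of 0.05. Albumin ALB differed by -0.74 (adjusted p = 0.0822), transferrin TF by -0.77 (adjusted p = 0.0503), A2M by -0.58 and AFP, the fetal albumin, by -0.47. These abundant secreted proteins lie in the bands whose median was -0.19 to -0.50. The median of the 38 genes was -0.11 and became -0.05 after quantile normalization. Of 14 apolipoprotein and lipoprotein assembly genes none was called. APOB stood at -0.56 (adjusted p = 0.194) but at 0.06 after quantile normalization, APOA1 at -0.36, APOE at 0.33 and PLTP, the phospholipid transfer protein, at 0.39 (adjusted p = 0.138).

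Hepatocyte identity factors were not called either. Among 17 measured transcription factors of the liver the differences ran from -0.13 for CEBPA to 0.21 for FOXA1, with FOXA2 at 0.00 and PPARA at 0.20, and the median was 0.05. The hepatocyte marker list, whose members are mostly bright secreted proteins, was negative in 11 of 12 members with a median of -0.46, and only FGB of it was called.

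Ribosomal and mitochondrial genes stand beside the level effect. Of 58 measured cytosolic ribosomal protein genes, 57 were negative, with a median of -0.40, and 1 was called, against 0.962% of all genes. RPL11, which besides its place in the large subunit binds MDM2, read 12.29, 12.05, 12.17 and 12.08 in wild type against 11.23, 11.20, 11.64 and 11.41 in knockdown (-0.78, SE 0.16, adjusted p = 0.0368). Its call was lost without any of wild type replicates 1, 2 and 4 and HIF-1α knockdown replicates 1, 2, 3 and 4 (adjusted p up to 0.129). Averaged over the list, the wild type arrays stood at 11.72 to 12.25 and the HIF-1α knockdown arrays at 11.46 to 11.77, so the groups overlapped. In 20 of the 58 genes (34.5%) all knockdown arrays lay below all wild type arrays, against 2.11% of all genes. The median was -0.19 after quantile normalization and -0.24 after cyclic loess, with 6 and 5 members called, all lower, against 0.619% and 0.522% of all genes called lower under these scalings. Measured against the median of each gene's own level band, 51 of 58 were still below it, and the median of all 58 was -0.26 relative to it. COX5A, a subunit of cytochrome c oxidase, was the only called member of 60 respiratory chain genes, against 0.962% of all genes. It read 11.31, 11.14, 11.46 and 11.24 and 10.76, 10.71, 10.99 and 10.59 (-0.52, SE 0.10, adjusted p = 0.0326), and the list had a median of -0.05. Its call was lost without any of wild type replicates 1 and 4 and HIF-1α knockdown replicates 1, 2 and 4 (adjusted p up to 0.109). Relative to their level bands, 45 of the 60 respiratory chain genes lay lower, with a median of -0.10. The 16 genes of the tricarboxylic acid cycle had none called and a median of 0.03.

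The largest rises came from genes of different kinds. TACC1, a coiled-coil protein of the centrosome and microtubules, read 8.12, 7.95, 8.46 and 8.24 in wild type against 9.41, 9.37, 9.46 and 9.76 in knockdown, 2.47-fold higher, with every knockdown array far above the highest wild type array. It was the only called gene of the list of 39 mitotic genes, whose median was 0.11, but the kinetochore genes CENPH (0.37, adjusted p = 0.0431) and MIS12 (0.41, adjusted p = 0.0471), which are not on the list, were called higher too; TACC2 and TACC3 stood at 0.12 and -0.07, and CDK1 at 0.50 (adjusted p = 0.125). MXRA7, a matrix remodelling associated protein, read 9.91, 9.93, 10.56 and 10.25 and 11.42, 11.44, 11.67 and 11.29 (1.29, SE 0.20, adjusted p = 0.00763). With the mean of all its probe sets in place of the brightest, its difference was 0.52 and still called. H2BC12, a histone H2B gene, read 7.90, 7.99, 8.42 and 7.92 and 8.82, 9.18, 9.67 and 9.29 (1.19, SE 0.15, adjusted p = 0.00302). Of 49 measured replication-dependent histone genes no other was called and the median was -0.09, and since histone genes are near-identical copies, which copy the signal came from is uncertain.

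TSPAN7, a tetraspanin, read 8.97, 8.80, 9.15 and 8.43 in wild type against 9.98, 10.07, 9.86 and 9.55 in knockdown (1.03, SE 0.14) and was the only call among 24 tetraspanins. KLF7, a zinc-finger transcription factor, read 7.69, 7.75, 8.17 and 7.90 and 8.79, 8.62, 8.67 and 8.60 (0.79, SE 0.10), the only call among 21 KLF and SP factors. RCN1, which binds calcium in the endoplasmic reticulum, read 8.15, 8.07, 8.33 and 8.28 and 8.96, 9.10, 9.16 and 8.97 (0.84, SE 0.08). The groups were far apart in all 3 genes relative to their spread. Its relative RCN2 stood at 0.69 (adjusted p = 0.0633), while the chaperones HSPA5, CALR and P4HB of the same list stood at -0.24, -0.27 and -0.49, none called. SH3BGRL, a small thioredoxin-fold protein, differed by 0.80 and NUPR1, a stress-induced nuclear protein, by 0.61; NUPR1 was the only call among 28 genes of the unfolded protein and amino acid stress response. RAB18, a GTPase of lipid droplets, CCDC59 and HEPACAM, an adhesion molecule first found as lost in liver cancer, rose by 0.75, 0.84 and 0.78. HEPACAM overlaps HEPN1, which was also called (0.28), so their signals may not be separate. The adjusted p of all genes of this paragraph described as called lay between 0.000182 for RCN1 and 0.0386 for RAB18. Single arrays decided the last 3 calls: RAB18 was not called without any of wild type replicates 1, 2 and 4 and HIF-1α knockdown replicates 2, 3 and 4 (adjusted p up to 0.134), CCDC59 without any of wild type replicates 1 and 4 and HIF-1α knockdown replicates 2, 3 and 4 (adjusted p up to 0.0849) and HEPACAM without any of wild type replicates 1 and 4 and HIF-1α knockdown replicates 1, 2, 3 and 4 (adjusted p up to 0.125). RAB18 and CCDC59 were not called after quantile normalization (0.061 and 0.0523).

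Lipid genes were led by FADS2, the Δ6 desaturase of polyunsaturated fatty acid synthesis. FADS2 read 8.96, 9.06, 9.43 and 9.58 in wild type against 10.42, 10.07, 10.25 and 10.06 in knockdown, 1.92-fold higher (0.94, SE 0.13, adjusted p = 0.00413). It was the only call of 19 desaturases, elongases and related enzymes, whose median was 0.11. FADS1, its partner enzyme, differed by 0.22 (adjusted p = 0.261), the elongase ELOVL6 by 0.50 (adjusted p = 0.117) and the stearoyl-CoA desaturase SCD by -0.12. SPTSSB, the small subunit of serine palmitoyltransferase that starts sphingolipid synthesis, fell from 7.86, 7.94, 7.97 and 7.69 to 6.95, 7.04, 6.81 and 7.01 (-0.91, SE 0.09, adjusted p = 0.000339). It was the only call of 22 genes of sphingolipid synthesis and held in all 19 settings, but its knockdown levels were near the floor. None of 26 genes of sterol and fatty acid synthesis or 23 of fatty acid oxidation was called.

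Genes of conjugation and oxidation of drugs and steroids had 5 members called, all higher. Of 36 phase II enzymes, 3 were called higher and none lower, against 0.815% of all genes called higher. GSTA1, the main glutathione transferase of hepatocytes, read 7.49, 7.45, 7.29 and 7.12 in wild type against 8.53, 8.77, 8.29 and 8.13 in knockdown (1.09, SE 0.14, adjusted p = 0.00263). GSTA2, a close copy that can share probes with it, stood at 0.41 (adjusted p = 0.165). SULT1C2, a cytosolic sulfotransferase, read 7.56, 7.56, 7.50 and 7.43 and 8.43, 8.50, 8.19 and 8.10 (0.79, SE 0.11). SULT2A1, which sulfates bile acids and dehydroepiandrosterone, read 10.17, 9.88, 10.21 and 10.01 and 10.60, 10.59, 10.81 and 10.55 (0.57, SE 0.09). Of 33 cytochrome P450 and partner genes on the list 2 were called, both higher, against 0.815% of all genes called higher. CYP3A43, a P450 that is not on it, was also called (0.34, adjusted p = 0.0418), at levels near the floor. CYP19A1, the aromatase that makes oestrogens, read 7.92, 7.96, 8.16 and 7.98 and 8.58, 8.98, 8.71 and 8.66 (0.73, SE 0.10). CYP4F2, an ω-hydroxylase of fatty acids and vitamin K, read 7.68, 7.85, 8.17 and 8.04 and 8.48, 8.61, 8.63 and 8.36 (0.58, SE 0.10). The adjusted p of these calls lay between 0.00263 for GSTA1 and 0.0195 for CYP4F2. CYP3A4 and CYP7A1, which makes bile acids, stood at 0.04 and 0.12. The CYP4F2 call was lost without any of wild type replicates 1 and 2 and HIF-1α knockdown replicates 2 and 3 (adjusted p up to 0.0817). No called phase II or P450 gene was called without the 3 arrays with a raised floor.

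Bile acid and lipid export had 2 of 21 measured transporters called, both higher, against 0.815% of all genes. SLC51B, the β subunit of the basolateral bile acid and steroid exporter, read 8.04, 8.19, 8.57 and 8.19 in wild type against 8.96, 9.13, 9.22 and 8.81 in knockdown (0.78, SE 0.12, adjusted p = 0.0107). ABCB4, which flips phosphatidylcholine into bile, read 7.66, 7.78, 7.82 and 7.75 and 8.20, 8.32, 8.35 and 8.29 (0.53, SE 0.06, adjusted p = 0.00146) and was called in all 19 settings. In vitamin uptake, 2 of 12 measured genes were called, both lower, against 0.147% of all genes. SLC19A3, a thiamine transporter, fell from 7.76, 7.96, 8.43 and 7.71 to 7.13, 7.13, 7.28 and 7.03 (-0.82, SE 0.12, adjusted p = 0.00763), with wild type replicate 3 well above the others. CUBN, the cubilin receptor, fell from 7.10, 7.03, 7.11 and 7.05 to 6.82, 6.81, 6.79 and 6.81 (-0.26, SE 0.05, adjusted p = 0.0289), at levels near the floor, and lost its call without any of wild type replicates 1 and 4 and HIF-1α knockdown replicates 1, 2, 3 and 4 (adjusted p up to 0.104).

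Matrix and adhesion genes moved in both directions. Of 41 matrix and matricellular genes 3 were called higher and none lower, against 0.815% and 0.147% of all genes, and the median was 0.02. SPARC, a secreted collagen-binding glycoprotein, read 7.91, 7.69, 7.38 and 7.92 in wild type against 9.37, 8.94, 8.47 and 8.62 in knockdown (1.13, SE 0.17, adjusted p = 0.00763). The knockdown arrays were widely spread, and all lay above wild type. NID1, the basement membrane linker nidogen, differed by 0.34 and TIMP3, a matrix-bound inhibitor of metalloproteases, by 0.37 (adjusted p = 0.0171 and 0.0255). NID1 was not called after quantile normalization (0.0689), nor was TIMP3 (0.0937). Both also lost their call without single arrays: NID1 without any of wild type replicate 1 and HIF-1α knockdown replicate 3 (adjusted p up to 0.0731) and TIMP3 without any of wild type replicates 1, 2 and 4 and HIF-1α knockdown replicates 1, 2 and 3 (adjusted p up to 0.101). The collagens COL1A1, COL3A1 and COL4A1 stood at 0.08, -0.04 and -0.07, and fibronectin FN1, a bright gene, at -0.53 (adjusted p = 0.133). Of 36 adhesion and junction genes 1 was called, against 0.962% of all genes. ALCAM, an immunoglobulin-type adhesion molecule, fell from 9.69, 9.79, 9.45 and 9.58 to 8.66, 8.68, 8.41 and 8.65 (-1.03, SE 0.12, adjusted p = 0.00146). E-cadherin CDH1 differed by -0.45 (adjusted p = 0.107) and N-cadherin CDH2 by 0.41 (adjusted p = 0.0548). LRRTM4, a leucine-rich repeat membrane protein known from synapses, fell from 8.71, 8.77, 8.90 and 8.71 to 7.85, 7.61, 7.48 and 7.88 (-1.07, SE 0.09, adjusted p = 0.000116) and was called in all 19 settings. So was ARFGEF3, an exchange factor relative of the secretory pathway, at -0.65 (adjusted p = 0.000422). MEP1A, the metalloprotease meprin α, fell by 0.63 on the log2 scale (adjusted p = 0.0354), a call lost without any of wild type replicates 1, 2 and 4 and HIF-1α knockdown replicates 1, 2, 3 and 4 (adjusted p up to 0.126).

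**Figure D4:**
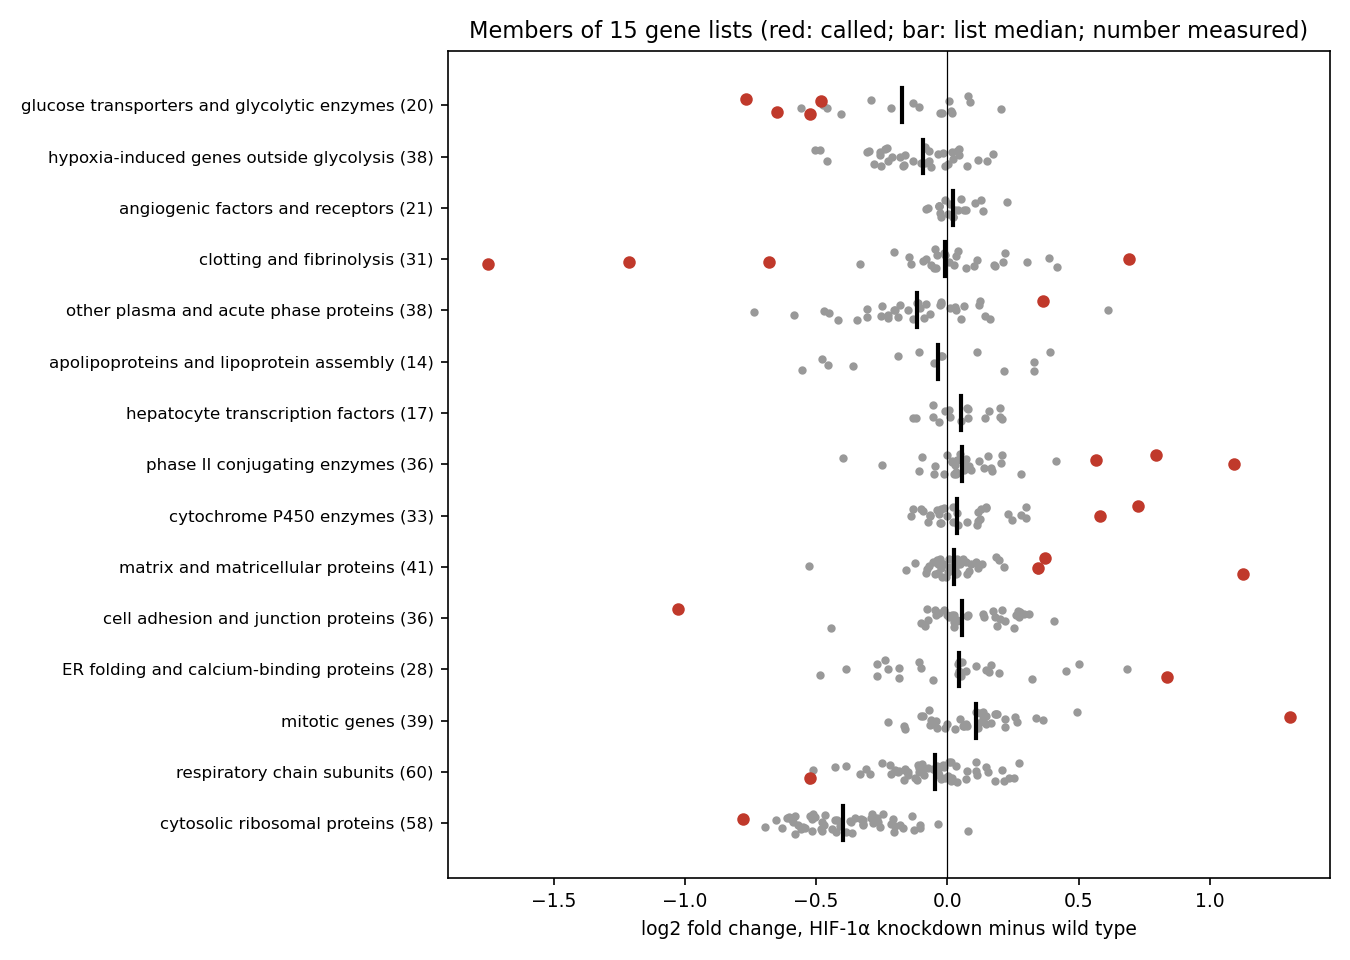
Differences between HIF-1α knockdown and wild type (log2, horizontal axis) for the measured members of 15 gene lists, with called genes in red, other genes in grey and a black bar at the median of each list; the number measured follows each name. Medians lie close to 0 in most lists, at -0.17 for glycolysis and at -0.40 for ribosomal proteins, and the called clotting genes are 3 fibrinogen chains to the left and CPB2 to the right.

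Growth and stress programmes had few calls, as had the genes tested as a whole (0.962% called). DNA replication (38 measured) had none, nor had autophagy (24), metallothioneins and zinc transport (15), immediate early genes (27), TGF-β and activin signalling (25), the IGF axis (14), the urea cycle and amino acid breakdown (21), NRF2 targets (31) and RNA interference (13). The lists are not complete: the activin receptor ACVR1 (0.29, adjusted p = 0.0236) and LDLRAD4, an inhibitor of TGF-β signalling (0.31, adjusted p = 0.0143), are on none of them and were called higher. MYC differed by -0.37 (adjusted p = 0.108, no overlap) and the cell cycle inhibitor of the p53 response CDKN1A by 0.22 (adjusted p = 0.193). TNFRSF10B, a receptor of the death ligand TRAIL, was the only called of 26 p53 targets (0.29, adjusted p = 0.0476), and it kept its call in 7 of 19 settings. TNFAIP3, the NF-κB inhibitor A20, was the only called of 28 interferon and NF-κB response genes (0.44, adjusted p = 0.0369). Of 17 progenitor and oncofetal genes, LIN28B, which blocks let-7 maturation, rose (0.54, adjusted p = 0.0191) and PROM1, the membrane protein CD133, fell (-0.39, adjusted p = 0.0326). Each of these 4 calls was lost without some single arrays: TNFRSF10B without any of wild type replicates 1, 2 and 4 and HIF-1α knockdown replicates 1, 2 and 3 (adjusted p up to 0.158), TNFAIP3 without any of wild type replicates 1, 2 and 4 and HIF-1α knockdown replicates 1, 2, 3 and 4 (adjusted p up to 0.137), LIN28B without any of wild type replicates 1 and 4 and HIF-1α knockdown replicates 2 and 4 (adjusted p up to 0.0759), and PROM1 without any of wild type replicates 2 and 4 and HIF-1α knockdown replicates 1, 2 and 3 (adjusted p up to 0.123).

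Set directly against HIF-2α knockdown, HIF-1α knockdown differed in 509 genes (2.77% of all). HIF-2α knockdown against wild type, which shares the wild type arrays with the main comparison, gave 145 (0.788%). Fibrinogen stood out by its size: FGB read 10.30, 10.53, 10.04 and 10.56 in HIF-2α knockdown, above every wild type array, and differed from wild type by 0.63 there (adjusted p = 0.0196). FGG lay between 11.43 and 12.03 there, also above every wild type array (0.60, adjusted p = 0.0437), and FGA 12.24, 12.51, 12.20 and 12.60 (0.34, adjusted p = 0.243, not called). Between the knockdowns FGB differed by -2.38 (SE 0.11, adjusted p = 1.66e-07), FGA by -1.55 (SE 0.12, adjusted p = 1.68e-05) and FGG by -1.27 (SE 0.12, adjusted p = 0.000107). CPB2 differed between them by 0.37 (adjusted p = 0.0861).

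Besides FGB and FGG, 6 of the named genes were called on opposite sides of wild type in the knockdowns. All 6 were named for calls against both other groups, by the smallest p between the knockdowns. Their extreme place in HIF-1α knockdown and their small adjusted p between the knockdowns are therefore set by that choice. How many of all genes lay on opposite sides was not counted. SPTSSB read 8.75, 8.70, 8.43 and 8.41 in HIF-2α knockdown, above wild type by 0.71 (adjusted p = 0.00206), and the knockdowns differed by -1.62 (SE 0.09, adjusted p = 7.23e-07). PROM1 fell from 7.90, 8.02, 8.17 and 8.12 in wild type to 7.63, 7.51, 7.69 and 7.81 in HIF-1α knockdown and read 8.51, 8.53, 8.42 and 8.68 in HIF-2α knockdown (between knockdowns -0.88, adjusted p = 5.54e-05). CUBN read 7.32, 7.42, 7.52 and 7.46 in HIF-2α knockdown (between knockdowns -0.62, adjusted p = 2.82e-05). These groups are narrow, with no array of one inside the range of another. CARMIL1, a regulator of actin capping, read 7.69, 7.81, 7.89 and 7.81 in wild type, then 7.44, 7.47, 7.42 and 7.52 with HIF-1α knockdown and 8.17, 8.23, 8.09 and 8.12 with HIF-2α knockdown. PLEKHH2, a cytoskeletal protein of podocytes, read 7.45, 7.62, 7.50 and 7.35, 7.05, 7.03, 6.99 and 7.13 and 7.79, 7.94, 7.79 and 7.68 in the same order. Its HIF-1α knockdown levels were near the floor. SERPINE2, the protease inhibitor nexin 1, ran the other way, at 8.13, 8.14, 8.24 and 8.07 in wild type, at 8.46, 8.64, 8.58 and 8.57 in HIF-1α knockdown and 7.74, 7.89, 7.57 and 7.59 in HIF-2α knockdown. Between the knockdowns these 3 differed by -0.69, -0.75 and 0.86, with adjusted p of 1.83e-05, 6.42e-05 and 3.66e-05. Against wild type, the HIF-1α knockdown calls of CARMIL1 and PLEKHH2 were lost without HIF-1α knockdown replicate 3 (adjusted p = 0.0519 and 0.0519), and that of SERPINE2 without any of wild type replicates 1 and 4 and HIF-1α knockdown replicates 2 and 3 (adjusted p up to 0.0744). The SERPINE2 call was also lost after quantile normalization (0.062) and cyclic loess (0.0544).

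**Figure D5:**
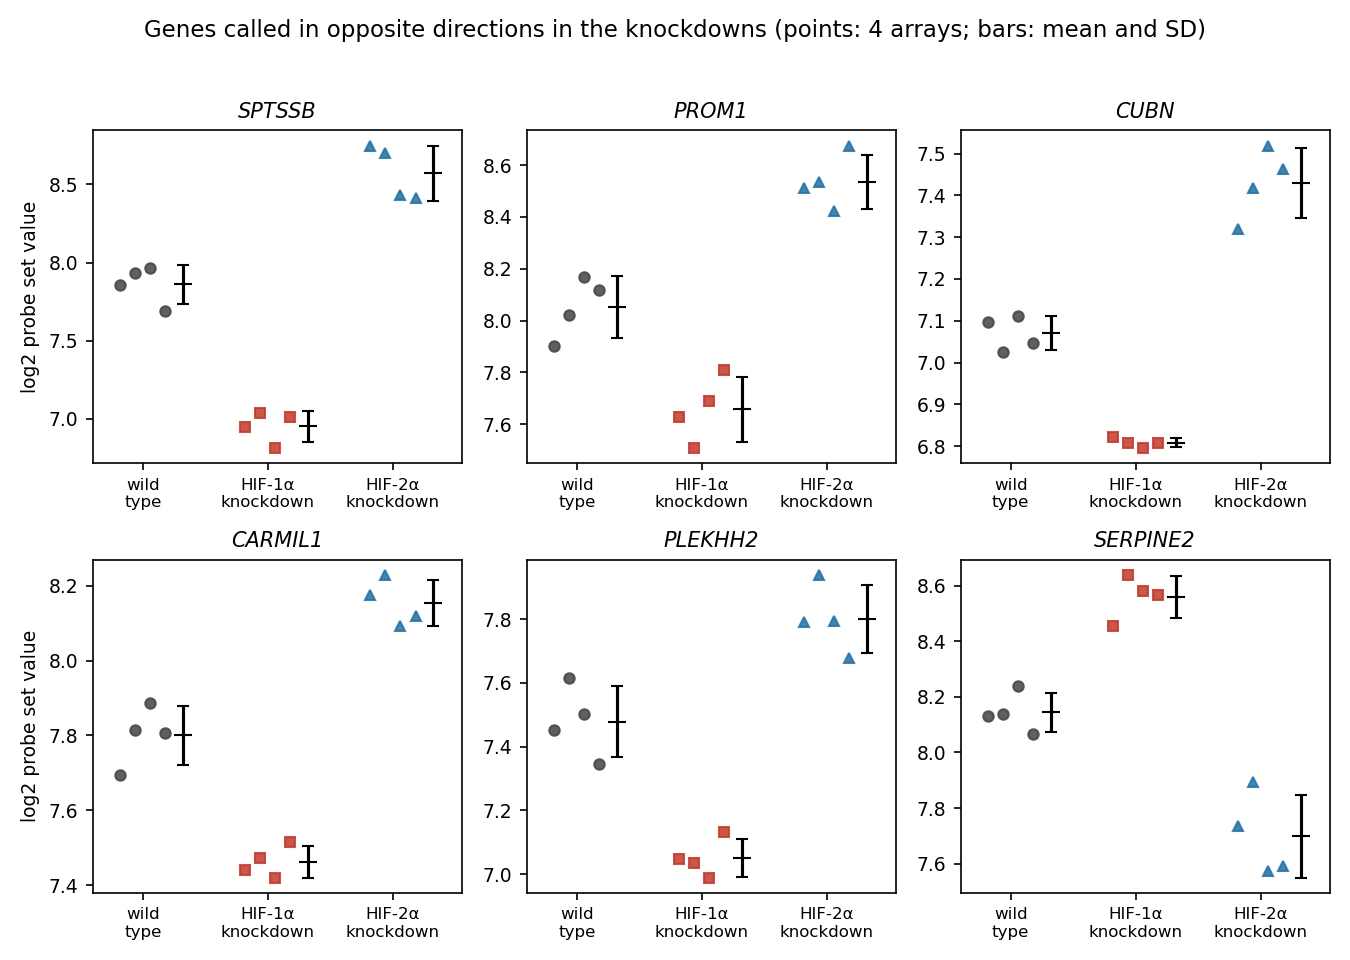
Log2 probe set values of SPTSSB, PROM1, CUBN, CARMIL1, PLEKHH2 and SERPINE2 on the 12 arrays, with mean and SD beside the 4 points of each group; each panel has its own vertical range. Wild type lies between the knockdowns in every panel, with HIF-1α knockdown lowest in the first 5 genes and highest in SERPINE2.

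The glycolytic genes gave another picture beside HIF-2α knockdown. HK2 read 9.26, 9.38, 9.49 and 9.33 there, -0.46 from wild type (adjusted p = 0.0235), and the knockdowns differed by -0.02 (SE 0.08, adjusted p = 0.96). SLC2A3 read 11.31, 11.84, 11.29 and 11.59, -0.90 from wild type (adjusted p = 0.0102), with 0.25 between the knockdowns (SE 0.14, adjusted p = 0.517). ENO1 and GPI stood at -0.36 and -0.38 from wild type in HIF-2α knockdown, neither called, and at -0.40 and -0.15 between the knockdowns, also not called. A difference that misses the threshold does not show that these genes responded alike. Of the rises, SULT1C2 and TSPAN7 were also higher in HIF-2α knockdown (0.94, adjusted p = 0.00133, and 0.80, adjusted p = 0.0209). TACC1 was higher in both (0.65 in HIF-2α knockdown, adjusted p = 0.017) and higher in HIF-1α than in HIF-2α knockdown by 0.66 (adjusted p = 0.00639). RCN1, H2BC12, KLF7 and SLC51B read -0.21, -0.36, -0.11 and -0.28 from wild type in HIF-2α knockdown, none called, and differed between the knockdowns by 1.05, 1.54, 0.90 and 1.06, all called.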

How the data were processed

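Per the labels' protocols, RNA of HepG2 spheroids was amplified, labelled with biotin and read on Affymetrix arrays. The authors deposited 1 table of log2 values for 32321 probe sets on 12 arrays. Their range was taken to mean a log base of 2. Background correction and normalization are not stated in the labels, so levels are comparable only as far as that processing allows. Names came from the annotation of the platform: 19158 had 1 symbol, 1388 several and 11775 none. Symbols were updated through Entrez identifiers in RefSeq (GRCh38.p14; 19128 matched), and the brightest 1-symbol probe set stood for each of 18404 genes.

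The fit used limma 3.58.1 under R 4.3.3 (1 mean per group over all 12 arrays, eBayes, Benjamini-Hochberg). On simulated data it recovered 26 of 50 genes changed 1.3-fold and 50 of 50 changed 2-fold, with 10 false calls. The simulated noise was independent between genes, without shifts shared by many genes or tied to level. That check therefore does not cover such shifts, which the real arrays show. Nothing was filtered on level. The table holds no detection calls or counts, and precision is limited by how many arrays there are. The labels give 4 spheroid experiments per group, so p-values measure the spread between these experiments. The members and the 44 gene lists were chosen with earlier results of these data known. Named genes are HIF1A, EPAS1 and ARNT, the 15 largest called rises and falls without overlap, and called list members. For lists without a call they include the 2 members of smallest p. Up to 10 genes called against both other groups in the same direction were added, by the smallest p between the knockdowns. Other list members were named after their values were seen. Same-numbered arrays of wild type and HIF-1α knockdown correlated in their deviations at r = 0.17, 0.31, 0.64 and -0.04. Since 1 of the 4 was not above the minimum of 0.1, no pairing was used. Alternatives were other scalings, filters, variance models, a replicate block and arrays left out.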

Additional observations from a re-analysis of the deposited data

Results flagged for a closer look

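Of 180 groups of 4 arrays checked (90 named genes, each in the wild type and the HIF-1α knockdown group), 11 held an array far from the other 3 relative to the range of the group, where chance gives about 1 in 20. In HIF-1α knockdown replicate 1, RAB18 read 9.72 against 10.11 to 10.19 on the other arrays, BNIP3L 10.16 against 10.43 to 10.47 and SLC40A1, the iron exporter ferroportin, 8.66 against 8.90 to 8.95. In HIF-1α knockdown replicate 3, ALCAM read 8.41, below 8.65 to 8.68, while TNFAIP3 at 9.42 and NDRG1 at 10.42 were above the others. In HIF-1α knockdown replicate 2, IRS1, the insulin receptor substrate, read 7.99, below the others, and SLC30A1, a zinc exporter, 8.96, above them. TNFRSF10B read 10.22 in HIF-1α knockdown replicate 4, below the others. In wild type, HEPACAM read 7.81 in replicate 2 against 8.47 to 8.55, and TXNIP, a thioredoxin inhibitor, 10.76 in replicate 3, above the others.

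Between the knockdowns, 44 of the 90 named genes differed (adjusted p below 0.05 by limma, HIF-1α minus HIF-2α knockdown on the log2 scale; 2.77% of all genes did). Most of the 90 were named for their calls on the same HIF-1α knockdown arrays, some for calls against both other groups, so this count is set by the choice and is a description. Lower in HIF-1α knockdown were FGB (-2.38), SPTSSB (-1.62), FGA (-1.55), HIF1A (-1.48), CDO1 (-1.43), LRRTM4 (-1.30), FGG (-1.27), ALCAM (-1.19), MEP1A (-0.96), PROM1 (-0.88), RPL11 (-0.76), PLEKHH2 (-0.75), CARMIL1 (-0.69), ARFGEF3 (-0.65), CUBN (-0.62) and AGO3 (-0.44). Higher were H2BC12 (1.54), MXRA7 (1.27), FADS2 (1.16), EPAS1 (1.09), SLC51B (1.06), RCN1 (1.05), HEPACAM (0.94), KLF7 (0.90), SERPINE2 (0.86), CYP19A1 (0.83), SPARC (0.81), PLTP (0.76), SLC40A1 (0.72), NDRG1 (0.71), TACC1 (0.66), GSTA1 (0.65), NID1 (0.59), SH3BGRL (0.57), CYP4F2 (0.55), TIMP3 (0.48), SULT2A1 (0.44), SLC16A7 (0.43), C1S (0.42), ABCB4 (0.41), IGF2R (0.35), TNFRSF10B (0.34), EGR1 (0.29) and MT1H (0.28). CDO1, a cysteine dioxygenase, read 8.37 to 8.83 in wild type, 7.82 to 8.18 in HIF-1α knockdown and 9.03 to 9.81 in HIF-2α knockdown, without being called against wild type in either.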

How the results depend on the processing

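Of 49 named genes called, none changed direction in the 19 alternatives, and 10 were called in all of them: ABCB4, ARFGEF3, FGA, FGB, KLF7, LRRTM4, RCN1, SLC16A7, SPTSSB and TACC1. After quantile normalization 43 were called, after cyclic loess normalization (chosen after seeing the data) 45, with each array centred on its median 31, and without the 3 arrays with a raised floor 10. The count of 177 genes (150 higher, 27 lower) was 254 after quantile normalization (140 higher, 114 lower) and 263 after cyclic loess (167 higher, 96 lower), so the split between rises and falls moved with the scaling. It was 85 with centred arrays, 288 with an intensity trend and robust priors, 605 with array weights, 396 with only the 8 arrays compared and 22 without the arrays with a raised floor (8 higher, 14 lower), where HIF1A was -1.24 and no longer called. Without single arrays it ran from 50 (HIF-1α knockdown replicate 3) to 483 (wild type replicate 3), and HIF1A from -1.16 to -1.29. With the replicate block, 234 genes were called, 150 of them among the 177, and 562 between the knockdowns. Of the named calls only CUBN was lost with the block (adjusted p = 0.0531). The replicate numbers did not meet the minimum set for pairing the arrays, which does not show that pairing was absent. Only 2 of 4 wild type arrays correlated best with the knockdown array of their own number. The 509 genes between the knockdowns became 888 after quantile normalization, 337 with centred arrays, 980 with array weights, 259 without the arrays with a raised floor, 838 after cyclic loess and 211 to 618 without single arrays. Among genes not called, EPAS1 was -0.137 without the arrays with a raised floor and, with single arrays left out, ran from -0.086 (wild type replicate 2) to 0.055 (wild type replicate 4). ARNT turned to -0.063 after quantile normalization, -0.062 after cyclic loess and -0.012 with array weights, and ran from -0.029 to 0.060 when these arrays or wild type replicate 1 were left out. APOB turned to 0.059 after quantile normalization. The causes were not tested. Levels near the floor and above 13 carry the least weight here.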
